A study of Mus musculus with 12 samples.

Results

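The integrated stress response was examined through 10 genes, the transcription factors Atf4, Atf3 and Ddit3 and 7 genes that ATF4 or its partners are known to switch on (Asns, Psat1, Phgdh, Trib3, Sesn2, Ppp1r15a and Nupr1). They were taken as every probe set whose platform annotation gives 1 of these symbols and no other, which found 20 of the 22690 probe sets of the array. Another 2 probe sets carry a second symbol beside Phgdh and were left out. Each gene was read from its probe set with the highest mean, and 9 of the 10 entered the tests among 8469 genes in all. Atf3 did not, because it lay above the 40th percentile of the array on 0 of the 12 arrays.

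Liver RNA from 12 male C57BL6/J mice aged 8 weeks was read on Affymetrix arrays, 1 array per mouse and 3 mice in each of 4 groups. The groups were wild-type mice given saline, wild-type mice given acetaminophen (APAP), mice labelled liver-null for Txnrd1 given saline, and liver-null mice given APAP. APAP was injected into the peritoneum at 100 mg/kg, and livers were collected 8 hours after either injection. In the liver-null mice a conditional allele of Txnrd1, which encodes the cytosolic thioredoxin reductase, is disrupted by albCre, a Cre recombinase driven by the albumin promoter and so active in hepatocytes. Whether other liver cells keep the gene was not measured here. The protocol text with this allele is attached to the wild-type samples too, and whether those mice carried albCre or the conditional allele is not given in the sources used here.

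Cells mount the integrated stress response when a kinase that senses amino acid shortage, unfolded protein, haem loss or viral RNA phosphorylates the translation factor eIF2. Most protein synthesis then slows, while the mRNA of Atf4 is translated more, so that ATF4 protein can rise with no change of its mRNA. ATF4 binds composite elements together with C/EBP proteins and turns on genes of amino acid synthesis, transport and feedback control, among them Ddit3, which encodes the death-promoting factor CHOP. In liver the response is known from amino acid deprivation, endoplasmic reticulum stress and toxic doses of drugs.

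The proximal promoters show which of these genes hold a composite element near their start. RefSeq windows of assembly GRCm38.p6, from 250 bases before the transcription start to 50 after it, matched all 10 genes, with more than 1 window for Psat1. They were searched on both strands for TGATGNAA, the composite element of ATF and C/EBP factors, and for TGACGTCA, the cyclic AMP response element, which reads the same on either strand. Of the 10 genes, 4 held TGATGNAA (Asns, Trib3, Atf3 and Nupr1), against 3.97% of all 32851 windows of this length. TGACGTCA was found in the window of Ppp1r15a, at position -12 from the start, and in 1.79% of all windows. No window of the 10 genes held both motifs. Below are the 4 genes with the highest liver-null to wild-type differences in the values that follow (Asns, Trib3, Psat1 and Sesn2), with Atf3 and Nupr1 as the other holders of the element. Each is written 5′ to 3′ on the strand of the gene, and capitals mark a match to TGATGNAA on either strand.
Asns, chr6:7693160-7693459, minus strand: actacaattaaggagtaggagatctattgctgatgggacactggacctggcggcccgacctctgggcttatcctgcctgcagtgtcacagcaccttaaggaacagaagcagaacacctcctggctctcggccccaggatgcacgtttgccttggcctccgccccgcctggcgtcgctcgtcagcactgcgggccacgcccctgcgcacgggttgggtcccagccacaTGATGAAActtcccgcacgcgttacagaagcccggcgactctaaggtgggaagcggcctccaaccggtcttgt
Trib3, chr2:152344011-152344310, minus strand: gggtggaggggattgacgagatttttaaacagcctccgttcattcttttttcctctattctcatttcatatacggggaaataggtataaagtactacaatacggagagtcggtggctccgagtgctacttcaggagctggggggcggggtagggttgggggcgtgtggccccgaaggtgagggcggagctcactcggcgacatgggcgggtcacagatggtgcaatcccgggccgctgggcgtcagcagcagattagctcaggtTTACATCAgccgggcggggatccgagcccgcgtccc
Psat1, chr19:15925010-15925309, minus strand: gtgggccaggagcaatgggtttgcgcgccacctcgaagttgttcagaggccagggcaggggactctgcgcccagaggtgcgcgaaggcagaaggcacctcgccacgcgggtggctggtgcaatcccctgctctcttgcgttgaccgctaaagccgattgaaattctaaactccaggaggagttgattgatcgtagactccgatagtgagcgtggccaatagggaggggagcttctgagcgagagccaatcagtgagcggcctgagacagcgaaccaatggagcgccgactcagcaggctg
Sesn2, chr4:132510407-132510706, minus strand: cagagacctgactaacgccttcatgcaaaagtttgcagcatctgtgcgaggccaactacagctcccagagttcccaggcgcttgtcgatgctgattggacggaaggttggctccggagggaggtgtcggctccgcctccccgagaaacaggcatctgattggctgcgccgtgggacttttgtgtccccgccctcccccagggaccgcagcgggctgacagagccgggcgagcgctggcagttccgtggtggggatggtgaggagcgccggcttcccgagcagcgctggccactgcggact
Atf3, chr1:191183284-191183583, minus strand: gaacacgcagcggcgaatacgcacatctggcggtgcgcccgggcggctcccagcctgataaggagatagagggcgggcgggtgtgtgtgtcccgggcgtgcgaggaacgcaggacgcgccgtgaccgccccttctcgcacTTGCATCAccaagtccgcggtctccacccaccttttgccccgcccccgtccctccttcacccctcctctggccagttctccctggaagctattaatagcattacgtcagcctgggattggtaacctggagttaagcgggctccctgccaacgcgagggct
Nupr1, chr7:126625421-126625720, minus strand: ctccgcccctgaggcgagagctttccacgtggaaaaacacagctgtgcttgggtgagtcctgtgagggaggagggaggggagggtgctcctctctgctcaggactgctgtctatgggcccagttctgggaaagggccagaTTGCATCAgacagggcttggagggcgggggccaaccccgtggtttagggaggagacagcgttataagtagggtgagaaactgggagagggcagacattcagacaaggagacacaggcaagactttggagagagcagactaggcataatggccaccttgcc

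The match in Asns, TGATGAAA, lies on the sense strand with its first base at position -23. In Trib3 the match, read on the sense strand as TTACATCA, begins at position 15 after the start. Atf3 and Nupr1 both carry TTGCATCA beginning at position -110. Neither Psat1 window held either motif, the other one lying at chr19:15924573-15924872, and the same was true of Sesn2, Ddit3, Atf4 and Phgdh. These are matches of letters in a short window, and binding was not measured.

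The authors deposited log2 values computed with RMA, which removes background, equalizes the arrays and combines the probes of a probe set into 1 value. A difference of 1 is thus a factor of 2 on the linear scale. The array medians were 2.91 to 2.99, and probe sets near or below that level carry little signal over background. The arrays fell into 2 sets that no label names, by the upper quartile of their values. In the smaller set, with upper quartiles of 5.49 to 5.58, are arrays 10 (wild-type, saline), 16 (liver-null, saline), 14 (wild-type, APAP) and 17 (liver-null, APAP), numbered as in the labels, which is 1 from every group. The remaining 8 arrays had upper quartiles of 5.73 to 5.85. Txnrd1 itself read 9.43 to 9.81 on wild-type arrays and 10.26 to 10.58 on those labelled liver-null, a log2 difference of 0.75 (SE 0.088, limma adjusted p = 0.000858). Where its probes lie relative to the deleted part was not analysed here, so this does not check the labels, and group names here follow them. The 8 hepatocyte markers had a summed level (log2) of 15.89 to 15.98 in wild-type and 15.83 to 15.90 in liver-null livers, and 0 of them were called by genotype (limma). In whole liver, fewer cells of a type and less RNA per cell cannot be told apart.

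Across both treatments, Trib3 was higher in liver-null livers, and 3 further ATF4 targets, Asns, Psat1 and Sesn2, had higher means without passing the threshold, while Atf4 and Ddit3 themselves did not differ beyond their spread. A gene was called where the limma adjusted p (Benjamini-Hochberg over the 8469 genes) was under 0.05. Averaged over saline and APAP, 1 of the 9 tested genes was called, against 4.46% of all genes (378 genes, 193 higher and 185 lower). At an unadjusted p under 0.05 the count was 4 of 9, all with higher values in liver-null, against 17% of all genes. The median difference of the 9 genes was 0.21 on the log2 scale, beside -0.01 for all genes. The members and the gene lists below were chosen with earlier results of these data known. Their shares set beside those of all genes, here and below, are thus descriptions and not a test.

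**Figure D1:**
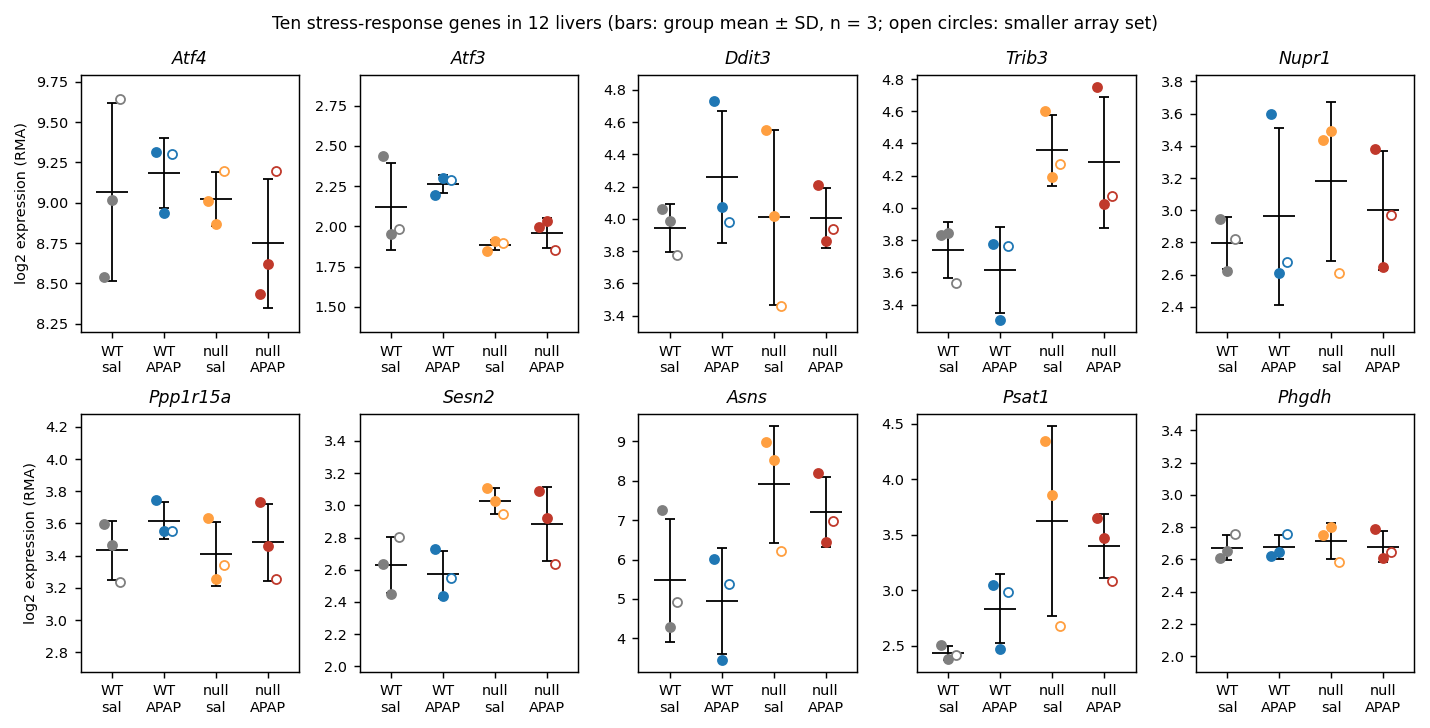
Log2 expression (vertical axis, a separate scale per panel) of each of the 10 genes in the 4 groups (horizontal axis; WT, wild-type; null, liver-null; sal, saline), 1 point per liver, with group mean and SD (n = 3) as bars. Open circles are the 4 arrays of the smaller set; all 6 liver-null points of Trib3 lie above all 6 wild-type points, and Asns spans the widest range.

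Among the enzymes of amino acid synthesis, Asns had by far the widest range. Asns encodes asparagine synthetase, which makes asparagine from aspartate and glutamine and is a classic ATF4 target. In wild-type saline livers 8, 9 and 10, Asns (probe set 1433966_x_at) read 7.25, 4.28 and 4.91, and in wild-type APAP livers 12, 13 and 14 it read 6.02, 3.45 and 5.38. In liver-null saline livers 4, 5 and 16 Asns read 8.99, 8.54 and 6.22, and in liver-null APAP livers 2, 3 and 17 it read 8.19, 6.45 and 6.99. The groups overlapped through 1 array: wild-type saline 8 lay above 3 of the liver-null arrays, while the other 5 wild-type arrays lay below all 6. The averaged difference of Asns was 2.35 (SE 0.65, 95% confidence interval 0.92 to 3.78 before any adjustment), a 5.09-fold difference, and it missed the threshold (limma adjusted p = 0.0701). In absolute size, 13 of the 8469 genes had a larger averaged difference than Asns. Within the larger array set the difference of Asns was 2.80 and within the smaller set, with 1 array per group, it was 1.45. With the array set as a covariate Asns passed (limma adjusted p = 0.0426). Of the 12 fits that left out 1 array, Asns passed in 2 and otherwise failed (limma adjusted p up to 0.172). These 2 were without wild-type saline 8 (2.79, limma adjusted p = 0.0381) and without liver-null saline 16 (2.77, limma adjusted p = 0.0281).

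The suffix of that probe set marks probes that can bind other transcripts, so the other Asns probe set was read too. Probe set 1451095_at followed it with a Pearson correlation of 0.967 over the 12 arrays, a description of points that share their arrays, and had an averaged difference of 2.09 (SE 0.69, limma adjusted p = 0.136 among all probe sets). Asns is also abundant in exocrine pancreas. Of the 8 measured exocrine pancreas markers 6 did not pass the filter on low values, and 0 of the other 2 were called by genotype (limma). Their summed level was 4.93 to 5.15 (log2) on all 12 arrays, and the highest single value, that of Cela2a, was 2.84, below the array medians. The part of such cells in the values of Asns was not tested.

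Psat1 and Phgdh make serine from glycolytic intermediates, Phgdh at the first step and Psat1 at the next. Psat1 (probe set 1454607_s_at) read 2.51, 2.38 and 2.42 in wild-type saline livers 8, 9 and 10 and 3.05, 2.47 and 2.98 in wild-type APAP livers 12, 13 and 14. In liver-null saline livers 4, 5 and 16 Psat1 read 4.34, 3.86 and 2.68, and in liver-null APAP livers 2, 3 and 17 it read 3.65, 3.47 and 3.09. All liver-null arrays except saline 16 lay above every wild-type array, and the wild-type saline values lay below the array medians. The averaged difference of Psat1 was 0.88 (SE 0.24, 95% confidence interval 0.35 to 1.40), 1.84-fold, and missed the threshold (limma adjusted p = 0.0657). Psat1 passed with the array set as a covariate (limma adjusted p = 0.0271), with 1.23 within the larger set and 0.18 within the smaller. Its other probe set (1451064_a_at) correlated with this one at 0.980 and differed by 1.16 (SE 0.37). Without liver-null saline 16, Psat1 was called (difference 1.11, limma adjusted p = 0.00268). That was 1 of 12 fits that left out 1 array, and Psat1 failed in all the others (limma adjusted p up to 0.156).

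Phgdh gave no comparable signal. Its highest probe set stayed between 2.59 and 2.80 on all arrays, below the array medians, with an averaged difference of 0.02 (95% confidence interval -0.14 to 0.19). The other 3 Phgdh probe sets reached at most 2.69. A difference of Phgdh between the groups was not detectable at this signal.

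Among the feedback regulators, Trib3 was the gene that passed. Trib3 encodes a pseudokinase that is induced by ATF4 and CHOP and is known to dampen ATF4 activity. Trib3 (probe set 1426065_a_at) read 3.84, 3.85 and 3.54 in wild-type saline livers 8, 9 and 10 and 3.77, 3.30 and 3.77 in wild-type APAP livers 12, 13 and 14. In liver-null saline livers 4, 5 and 16 Trib3 read 4.60, 4.19 and 4.27, and in liver-null APAP livers 2, 3 and 17 it read 4.75, 4.03 and 4.07. All 6 liver-null arrays lay above all 6 wild-type arrays, which in this direction was so for 2.27% of all genes. The averaged difference of Trib3 was 0.64 (SE 0.15, 95% confidence interval 0.32 to 0.97), 1.56-fold (limma adjusted p = 0.0321). It was 0.70 within the larger array set and 0.52 within the smaller, and Trib3 also passed with the set as a covariate (limma adjusted p = 0.0201). In the larger set alone, with 8 arrays, Trib3 did not pass (limma adjusted p = 0.0805). The call did not survive every choice of arrays: leaving out wild-type saline 8, 9 or 10, wild-type APAP 13, liver-null saline 4 or 5, or liver-null APAP 2 raised the limma adjusted p of Trib3 to between 0.0527 and 0.0778. The other Trib3 probe set (1456225_x_at), dimmer at 2.13 to 2.87, had a difference of 0.33 (SE 0.12, limma adjusted p = 0.167 among all probe sets), and 3 of its 6 liver-null values lay above every wild-type value.

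Sesn2 encodes sestrin 2, a leucine-binding inhibitor of the growth kinase mTORC1 that is known to respond to ATF4, p53 and NRF2. Sesn2 (probe set 1425139_at) read 2.63, 2.45 and 2.80 in wild-type saline livers 8, 9 and 10 and 2.73, 2.44 and 2.55 in wild-type APAP livers 12, 13 and 14. In liver-null saline livers 4, 5 and 16 Sesn2 read 3.11, 3.03 and 2.95, and in liver-null APAP livers 2, 3 and 17 it read 3.09, 2.92 and 2.64. The liver-null APAP 17 array was the single liver-null array within the wild-type range. The averaged difference of Sesn2 was 0.36 (SE 0.10, 95% confidence interval 0.13 to 0.58), 1.28-fold, and missed the threshold (limma adjusted p = 0.0767). It was 0.47 within the larger array set and 0.12 within the smaller, and Sesn2 passed with the set as a covariate (limma adjusted p = 0.0407). Its other probe set differed by 0.30 (SE 0.12) and correlated with this one at 0.869. All these values lie close to the array medians, where signal over background is small. Without liver-null APAP 17 Sesn2 was called (difference 0.42, limma adjusted p = 0.0413). That was 1 of 12 fits that left out 1 array, and Sesn2 failed in all the others (limma adjusted p up to 0.182).

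Ppp1r15a and Nupr1 did not pass. Ppp1r15a encodes GADD34, the subunit that directs a phosphatase to eIF2 and so ends the response. Its values ran from 3.24 to 3.75 in wild-type livers and from 3.25 to 3.73 in liver-null livers, with an averaged difference of -0.08 (95% confidence interval -0.32 to 0.16). Nupr1, a small stress-induced chromatin protein, read 2.95, 2.62 and 2.82 in wild-type saline livers, 3.59, 2.61 and 2.68 in wild-type APAP livers, 3.43, 3.49 and 2.61 in liver-null saline livers, and 3.38, 2.65 and 2.97 in liver-null APAP livers. The highest value of Nupr1 was on wild-type APAP 12 and the lowest on wild-type APAP 13, so all groups overlapped. Its averaged difference was 0.21 (95% confidence interval -0.25 to 0.67). The other Nupr1 probe set (1419666_x_at) differed by 0.08 (SE 0.18) and correlated with the used one at 0.652. Both lie close to the array medians.

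The transcription factors themselves showed no genotype difference that passed the threshold. Atf4 is read by probe sets that disagree, and the brighter one carries the suffix that marks probes able to bind other transcripts. The brighter one (1438992_x_at) gave 8.54, 9.02 and 9.64 in wild-type saline livers, 9.32, 8.93 and 9.30 in wild-type APAP livers, 9.01, 8.87 and 9.20 in liver-null saline livers, and 8.43, 8.62 and 9.20 in liver-null APAP livers. Its averaged difference was -0.24 (95% confidence interval -0.65 to 0.17, limma adjusted p = 0.612), with -0.22 in the larger array set and -0.27 in the smaller. Probe set 1448135_at of Atf4 ran from 7.79 to 8.79 in both genotypes and differed by -0.08 (SE 0.19). The 2 bright probe sets of Atf4 were uncorrelated over the 12 arrays (Pearson r -0.04), and the array sets moved them in opposite directions: the mean of the smaller set was 0.49 above that of the larger for 1438992_x_at and -0.47 relative to it for 1448135_at. The third Atf4 probe set stayed at 2.48 to 2.76.

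Atf3, a fast stress-induced repressor, was near background throughout, at 1.95 to 2.43 in wild-type and 1.85 to 2.03 in liver-null livers. With no filter on low values it had an averaged difference of -0.27 (SE 0.087, limma adjusted p = 0.156). Ddit3 read 4.06, 3.99 and 3.78 in wild-type saline livers, 4.73, 4.07 and 3.98 in wild-type APAP livers, 4.55, 4.01 and 3.46 in liver-null saline livers, and 4.21, 3.86 and 3.93 in liver-null APAP livers. Its highest array was wild-type APAP 12 and its lowest liver-null saline 16, and every group overlapped every other. The averaged difference of Ddit3 was -0.10 (95% confidence interval -0.50 to 0.31).

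**Figure D2:**
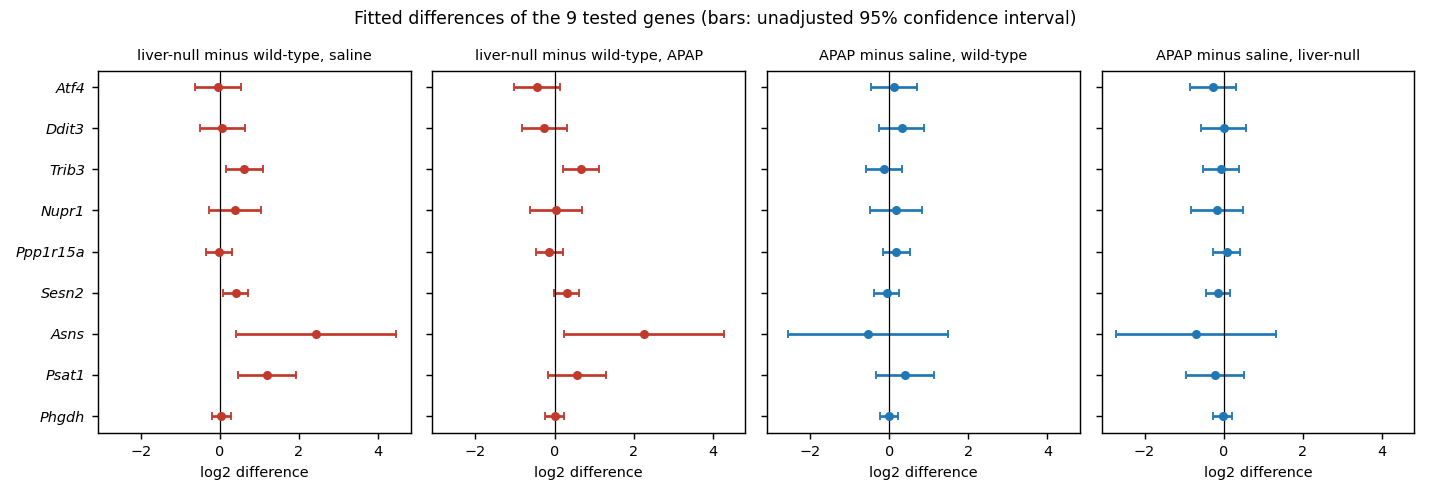
Fitted log2 differences (horizontal axis) of the 9 tested genes (vertical axis) in the 4 pairwise comparisons, with unadjusted 95% confidence intervals from limma. Intervals of Trib3, Asns, Psat1 and Sesn2 lie above 0 for genotype in saline, and those of Trib3 and Asns for genotype after APAP. All intervals of APAP against saline include 0, and no gene passed after adjustment in these 4 panels.

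Within saline alone, 0 of the 9 genes were called between the genotypes, where 0.638% of all genes were (54 genes). At an unadjusted p under 0.05 the count was 4 of 9 (limma), against 12.2% of all genes. These were Psat1 (difference 1.19, SE 0.34, limma adjusted p = 0.154), Trib3 (0.62, SE 0.21, adjusted p = 0.230), Sesn2 (0.40, SE 0.14, adjusted p = 0.254) and Asns (2.44, SE 0.92, adjusted p = 0.287). For Trib3, Sesn2 and Psat1 the 3 liver-null saline arrays lay above the 3 wild-type saline arrays, as was so for 6.48% of all genes. Nupr1 differed by 0.38 (SE 0.30), and Atf4, Ddit3, Ppp1r15a and Phgdh by -0.04 to 0.07. Liver-null saline 16 had the lowest value of its group for Asns, Psat1 and Sesn2. Without it Psat1 was called in saline (1.66, limma adjusted p = 0.0176), which was so in only 1 of 6 fits that left out 1 array.

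After APAP, again 0 of the 9 genes were called between the genotypes, where 0.768% of all genes were (65 genes). At an unadjusted p under 0.05 the count was 2 of 9 (limma), Trib3 and Asns, against 9.02% of all genes. Asns differed by 2.26 (SE 0.92, limma adjusted p = 0.457) and Trib3 by 0.67 (SE 0.21, adjusted p = 0.252). Psat1 and Sesn2 had smaller differences than in saline, 0.57 (SE 0.34) and 0.31 (SE 0.14), but the test of that change, the interaction below, did not pass. For Trib3, Asns and Psat1 the liver-null APAP arrays all lay above the wild-type APAP arrays, as did 6.97% of all genes. Atf4 differed by -0.43 (SE 0.27, limma adjusted p = 0.739) and Ddit3 by -0.26 (SE 0.26).

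At 100 mg/kg and 8 hours, APAP gave no called difference in any of the 9 genes. In wild-type livers 0 of 9 were called (0% of all genes) and 0 of 9 had an unadjusted p under 0.05 (limma), where 1.69% of all genes did. Ddit3 was 0.32 higher (SE 0.26, 95% confidence interval -0.25 to 0.89), Psat1 0.40 higher (SE 0.34, 95% confidence interval -0.34 to 1.14) and Ppp1r15a 0.18 higher (SE 0.15), all within their error. Asns differed by -0.53 with an interval from -2.55 to 1.49, so a several-fold difference of Asns in either direction could not have been told from its spread. Trib3 differed by -0.12 (95% confidence interval -0.59 to 0.34) and Atf4 by 0.12 (95% confidence interval -0.46 to 0.70).

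In liver-null livers, too, 0 of 9 were called after APAP (0% of all genes) and 0 of 9 had an unadjusted p under 0.05 (limma), where 0.697% of all genes did. Here 8 of the 9 differences were negative, from -0.70 for Asns (95% confidence interval -2.73 to 1.32) to -0.01 for Ddit3, and the median was -0.15 beside 0.02 for all genes. Psat1 differed by -0.23 (SE 0.34) and Atf4 by -0.28 (SE 0.27). Averaged over genotypes, Asns differed by -0.62 with APAP, but the array sets gave -1.24 in the larger and 0.62 in the smaller, so no direction is read. Over both genotypes 0 of 9 were called (0% of all genes) and 0 of 9 had an unadjusted p under 0.05 (limma), where 1.2% of all genes did.

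The test of whether APAP acted differently in the genotypes called 0 of the 9 genes (0% of all genes, limma), and 0 of 9 had an unadjusted p under 0.05, where 1.29% of all genes did. The interaction was largest for Psat1, at -0.62 (SE 0.48, 95% confidence interval -1.67 to 0.42), followed by Atf4 at -0.39 (SE 0.37), Nupr1 at -0.35 (SE 0.42) and Ddit3 at -0.32 (SE 0.37). For Trib3 it was 0.05 (SE 0.30).

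**Figure D3:**
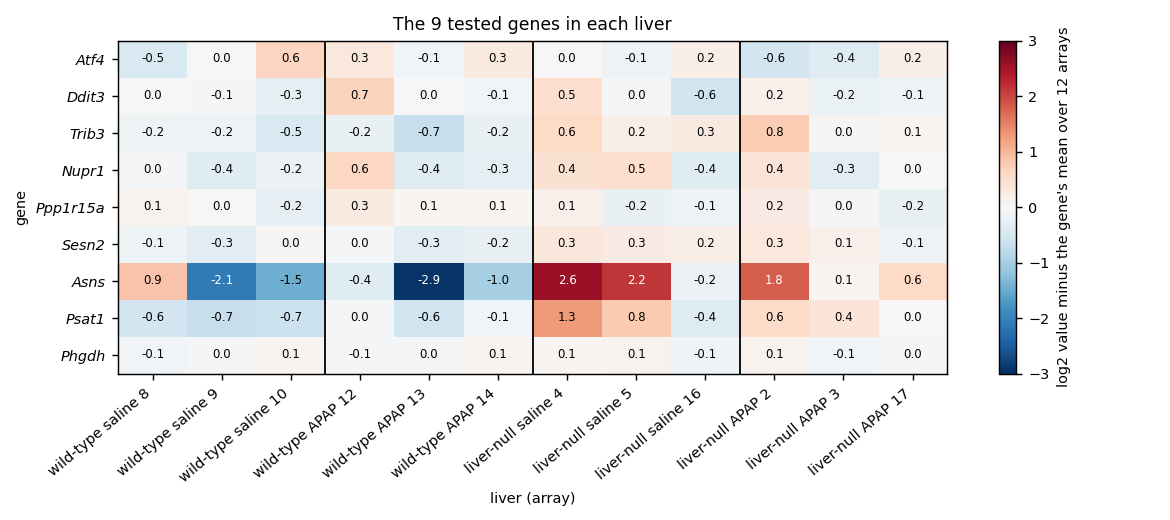
Log2 value of each of the 9 tested genes (vertical axis) in each of the 12 livers (horizontal axis, named by group and number), minus the mean of the gene over the 12 arrays, with colour from blue (lower) to red (higher). Asns varies most and Phgdh least, and liver-null saline 4 and 5 and liver-null APAP 2 and 3 are above their means for Asns, Psat1, Trib3 and Sesn2 together, APAP 3 by little for Asns and Trib3.

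From liver to liver the genes varied to different degrees. The SD over the 12 arrays was 1.71 for Asns, larger than that of 99.8% of all tested genes, 0.64 for Psat1 (97.3%) and 0.42 for Trib3 (91.0%). It was 0.24 for Sesn2 (58.3%), 0.18 for Ppp1r15a (35.3%) and 0.08 for Phgdh (1.82%). Mice of 1 group differed widely in Asns: the SD within a group (n = 3) was 1.56 in wild-type saline, 1.34 in wild-type APAP, 1.49 in liver-null saline and 0.89 in liver-null APAP.

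Asns, Psat1, Trib3 and Sesn2 varied together over the 12 arrays, but were not set apart from the other members within the groups. Over the 12 arrays the Pearson correlation was 0.839 between Asns and Trib3, 0.828 between Asns and Psat1, 0.803 between Asns and Sesn2 and 0.805 between Trib3 and Sesn2. These correlations hold the genotype difference and are descriptions, with no test. After the mean of each group was subtracted they were 0.615, 0.739, 0.521 and 0.467. The other genes did not form a separate group. Ddit3 correlated with Nupr1 at 0.745 (0.852 after the group means) and with Ppp1r15a at 0.728 (0.687), but Nupr1 with Ppp1r15a at 0.355 (0.468). Nupr1 correlated with Asns at 0.712 (0.802) and with Psat1 at 0.675 (0.690), and Ddit3 with Psat1 at 0.447 (0.800).

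For Atf4 the sign of these correlations differed between its probe sets. Over the 12 arrays Atf4 read by 1438992_x_at correlated at -0.423 with Asns, -0.437 with Trib3 and -0.326 with Psat1. After the group means were subtracted these were -0.340, -0.313 and -0.247. Read by 1448135_at, Atf4 correlated at 0.228 with Asns, 0.161 with Trib3 and 0.366 with Psat1, and at 0.862 with Ddit3. After the group means these were 0.453, 0.478, 0.643 and 0.934. No direction is read from Atf4 mRNA.

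By the same measure over the 12 arrays, the 3 other genes most like Psat1 were Cebpd (0.940), Mogat1 (0.928) and Peg3 (0.921). The nearest to Asns were Rplp2 (0.882), Znrd1as (0.875) and Samd4 (0.871). Trib3 was nearest to Gpx4 (0.909), Maged1 (0.908) and Slc8b1 (0.903), and Nupr1 to Krt18 (0.871), Tspan4 (0.865) and Elp3 (0.853). With so many genes compared, the highest correlations are high by selection, and the arrays are shared by all of them.

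1 liver stood out beside these genes. Liver-null saline 4, the highest array for Asns and Psat1, was also the highest for the neutrophil genes S100a8 (5.57, against 2.63 to 4.83 elsewhere) and S100a9 (5.28) and for the macrophage receptor Marco (7.38). The summed level of the 7 measured neutrophil and monocyte genes was 5.23 to 6.77 (log2) in liver-null saline, 5.25 to 5.45 in wild-type saline, 5.37 to 6.08 in wild-type APAP and 5.31 to 5.58 in liver-null APAP, and 0 of their 4 tested genes were called by genotype. The defining granule genes Mpo and Elane were at 2.12 or less on every array. Marco is 1 of 8 measured Kupffer cell and macrophage genes, and 0 of the 8 were called by genotype (limma). Their summed level (log2) was 10.51 to 11.14 in liver-null saline and 10.75 to 11.15 in wild-type saline. The part of neutrophils, monocytes and macrophages in the values of Asns and Psat1 was not tested. Without liver-null saline 4 the averaged difference was 2.08 for Asns (limma adjusted p = 0.141), 0.70 for Psat1 (adjusted p = 0.104), 0.58 for Trib3 (adjusted p = 0.0727) and 0.34 for Sesn2 (adjusted p = 0.144).

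The wider response was described through 65 tested genes in 6 lists of the response, with the members left out, and 17 genes of chaperones and of the XBP1 and ATF6 branches, of which Dnajc3 is in an eIF2 list too. Averaged over treatments, 3 of the 65 were called higher in liver-null livers and 1 lower (limma), against 2.28% and 2.18% of all genes. The median difference was 0.05, beside -0.01 for all genes, and 35 differences were positive and 30 negative. In saline alone, after APAP alone, for APAP in either genotype or both, and for the interaction, 0 of the 65 and 0 of the 17 were called (limma). Averaged over treatments, 14 of the 65 (21.5%) had an unadjusted p under 0.05, against 17% of all genes. By the same measure the counts among the 65 were 10 in saline (15.4%, against 12.2% of all genes), 5 after APAP (7.69%, against 9.02%), 1 for APAP in wild-type and 0 in liver-null livers, 2 for APAP over both genotypes and 2 for the interaction. Among the 17 they were 2, 0, 1, 0, 1 and 0 in the same order.

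**Figure D4:**
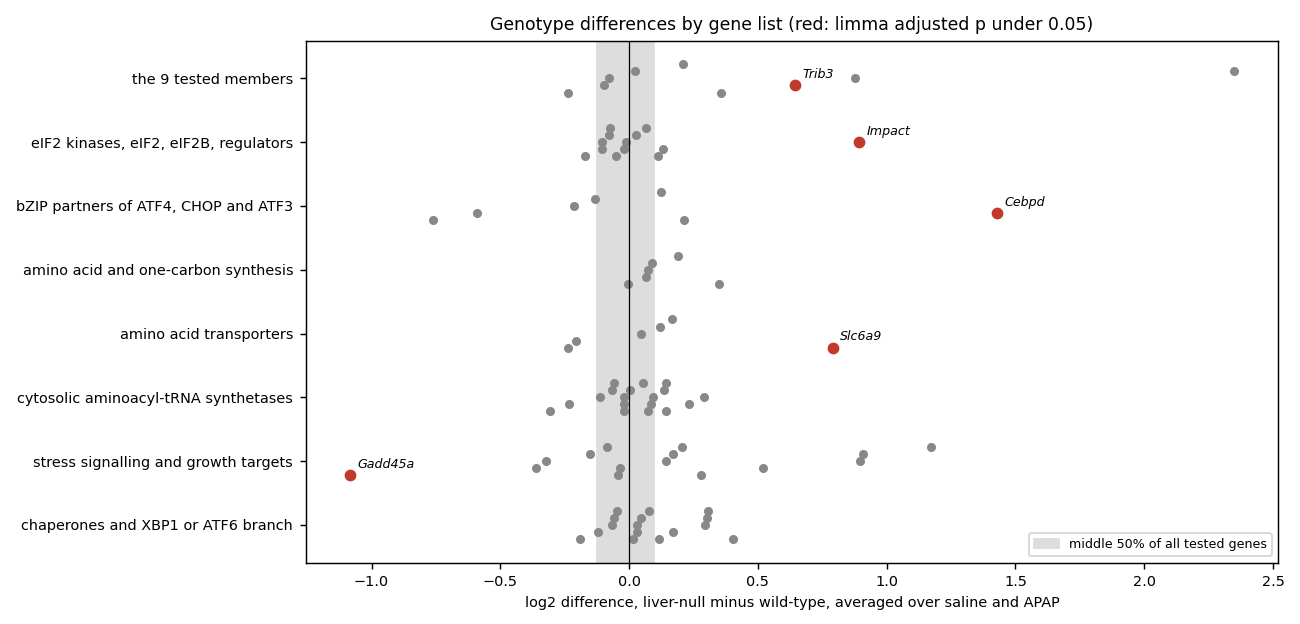
Liver-null minus wild-type log2 differences (horizontal axis), averaged over saline and APAP, of the members and of the genes of each list (vertical axis), 1 point per gene; vertical offsets only separate points, and Dnajc3 is drawn once, under the eIF2 list. Red points passed (limma adjusted p under 0.05) and are named, and the grey band holds the middle 50% of all 8469 tested genes.

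Upstream, the kinases, eIF2 and eIF2B subunits and their regulators held 13 tested genes of 15, of which 1 passed. This was Impact, whose product restrains the amino acid sensor GCN2, with a difference of 0.89 (SE 0.19, limma adjusted p = 0.0252). Impact read 5.92, 6.15 and 4.88 in liver-null saline livers 4, 5 and 16 and 6.10, 5.66 and 5.88 in liver-null APAP livers 2, 3 and 17, against 4.52 to 5.05 in wild-type livers, so that only liver-null saline 16 overlapped. The 4 kinase genes, named here for their role, did not pass: GCN2 (Eif2ak4) differed by 0.13 (SE 0.099), PERK (Eif2ak3) by -0.10 (SE 0.22), PKR (Eif2ak2) by -0.11 (SE 0.11) and HRI (Eif2ak1) by -0.01 (SE 0.15).

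Of the 7 bZIP partners, which pair with ATF4, CHOP or ATF3, 1 passed. Cebpd, which encodes C/EBP delta, was higher by 1.43 (SE 0.33, limma adjusted p = 0.0309), and was the gene most like Psat1 above. Cebpd was highest, at 7.58, on liver-null saline 4, and its lowest liver-null value was 5.25 on liver-null APAP 17, below the 5.43 of wild-type APAP 12. Of the other listed C/EBP genes, Cebpa differed by -0.21 (SE 0.091), Cebpb by 0.13 (SE 0.088) and Cebpg by -0.13 (SE 0.16). Atf5 differed by -0.59 (SE 0.28, limma adjusted p = 0.307). With APAP, Jun had the largest difference of these lists in wild-type livers, at 1.48 (SE 0.56) in wild-type livers, 1.19 (SE 0.56) in liver-null livers and 1.33 (SE 0.40) on average, and none of these passed (limma adjusted p 1.00 in each).

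Amino acid supply was covered by 3 lists. Of the 12 listed genes of amino acid and one-carbon synthesis 6 were tested and 0 passed, with Got1 at 0.35 (SE 0.27) and Gpt2 at 0.19 (SE 0.093) as the largest differences. Of the 9 listed transporters 6 were tested and 1 passed, the glycine transporter Slc6a9, higher by 0.79 (SE 0.19, limma adjusted p = 0.0362). Slc6a9 read 6.82 to 7.86 in liver-null and 6.22 to 6.88 in wild-type livers, overlapping through liver-null saline 16. Slc7a5 and its partner Slc3a2, the large neutral amino acid exchanger, differed by 0.05 (SE 0.12) and 0.17 (SE 0.18). Of the 20 listed cytosolic aminoacyl-tRNA synthetases, common targets of ATF4, 18 were tested and 0 passed, with Aars at -0.31 (SE 0.097, limma adjusted p = 0.112) and Qars at 0.29 (SE 0.11, limma adjusted p = 0.206) as the largest.

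Of the 17 listed genes of stress signalling and growth, 15 were tested and 1 passed, downward. The largest difference was that of Ddit4, an mTORC1 inhibitor named here after its value was seen, at 1.17 (SE 0.34, limma adjusted p = 0.0837), and it missed the threshold. Gadd45a, a growth-arrest gene, differed by -1.08 (SE 0.27, limma adjusted p = 0.0478), with 2.83 to 3.76 in liver-null livers and 3.27 to 5.07 in wild-type livers, where wild-type APAP 12 was the low one. That call was lost without any single array other than wild-type APAP 12. The calls of Impact, Cebpd and Slc6a9 held in 6, 4 and 3 of the 12 fits that left out 1 array, always with the same sign. With the array set as a covariate, 9 of the 65 genes were called (limma), 6 higher and 3 lower, which is 13.8% against 10.4% of all genes in that fit. Beside the 4 above these were Ddit4 (adjusted p = 0.0187), Qars (0.0296) and Xpot (0.0436), which were higher, and Aars (0.0318) and Stbd1 (0.0356), which were lower. Of the 17 chaperone and XBP1 or ATF6 genes 0 passed, with Dnajb9, a chaperone of the endoplasmic reticulum, at 0.40 (SE 0.11, limma adjusted p = 0.0703, and 0.0422 with the covariate) and Hyou1 at 0.31 (SE 0.15) as the largest.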

How the data were processed

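Total liver RNA of 12 mice was read on 12 arrays. The authors deposited log2 values of each probe set from RMA, per the submitters' processing notes; its version is not given in the sources used here. Nothing was normalized again. Genes were named from the platform annotation (probe sets with 1 symbol), each read from 1 probe set, that of highest mean, and kept where it exceeded its array's 40th percentile on at least 3 arrays. Group means were fitted with limma 3.58.1 in R 4.3.3 on all 12 arrays (8 residual and 3.43 prior degrees of freedom), with 7 comparisons and Benjamini-Hochberg adjustment over 8469 genes. The code was tested on simulated data. The members and gene lists were chosen with earlier results of these data known. From each list, up to 3 called genes per direction, or otherwise the 2 largest differences, were named, besides those said to be chosen otherwise. Alternatives were no filter, a 60th percentile filter, every probe set, gene means, quantile normalization, the array set as a covariate or its larger set alone, array weights, a robust prior, the compared groups alone, and each array left out. Arrays give no depth, so their number limits precision. The labels number the mice but share 1 mouse name across titles, so p-values measure the spread between these samples.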

Additional observations from a re-analysis of the deposited data

How the results depend on the processing

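No paired analysis was possible because the groups share no replicate numbers. Averaged over treatments, 1 of the 9 genes passed (Trib3, limma). The count was 3 after quantile normalization (Trib3, Psat1, Sesn2), 4 with the array set as a covariate and 4 with array weights (Trib3, Asns, Psat1, Sesn2 in both), 2 in the larger array set alone (Psat1, Sesn2), and 0 to 3 when 1 array was left out. It was 0 without wild-type saline 9 or 10, wild-type APAP 13, liver-null saline 4 or 5, or liver-null APAP 2, 3 without liver-null saline 16 and 2 without liver-null APAP 17. Over all genes the same fits also called more, 590 after quantile normalization, 882 with the covariate (10.4% of all genes) and 1409 with array weights. The larger set alone called 455, beside 378 in the main fit. The cause of these shifts was not tested. For genotype in saline the count moved from 0 to 1 in the larger set (Psat1, 1.65, limma adjusted p = 0.0339). It was 0 to 1 with 1 array left out and 4 with array weights (Asns, Psat1, Sesn2 and Nupr1). With array weights, 1323 of all genes were called in saline. In that fit Nupr1 passed (limma adjusted p = 0.0463) and Trib3 did not (limma adjusted p = 0.0972). In the other 5 comparisons the count was 0 in every setting run. Trib3 kept its sign in 21 of 21 alternatives (0.49 to 0.71, limma adjusted p 0.0101 to 0.0805) and passed in 13 of them. Asns passed in 4 of 21 (1.97 to 3.11), Psat1 in 5 of 20 (0.70 to 1.23) and Sesn2 in 5 of 20 (0.30 to 0.47). No called value changed sign.

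Over all genes, the averaged count moved from 378 to 590 after quantile normalization, 882 with the array set as a covariate, 1409 with array weights and 208 to 416 with 1 array left out. In saline it moved from 54 to 82 with every probe set, 104 after quantile normalization, 243 with the covariate, 117 in the larger set, 1323 with array weights, 121 with a robust prior, 19 in the compared groups alone and 10 to 92 with 1 array left out. After APAP it moved from 65 to 99, 185, 210, 98 and 39 with every probe set, the covariate, array weights, a robust prior and the compared groups alone, and to 21 to 59 with 1 array left out. Phgdh, Atf3, Sesn2, Nupr1 and the Psat1 values of wild-type saline livers lie near or below the array medians. There, signal over background limits what can be seen. The 60th percentile filter kept only Atf4, Ddit3, Trib3 and Asns.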

Other observations

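The chaperones and other genes of the XBP1 and ATF6 branches, which answer unfolded protein in the endoplasmic reticulum, had small differences of mostly 1 sign in each single comparison, and none was called (limma). These comparisons share groups, so the counts are not independent of each other. With APAP in wild-type livers 16 of the 17 differences were positive, with a median of 0.20 on the log2 scale, led by Dnajb9 (0.55, SE 0.16) and Manf (0.35, SE 0.21). With APAP in liver-null livers 14 of 17 were negative (median -0.09). In saline 15 of 17 were higher in liver-null livers (median 0.20), with Dnajb9 at 0.64 (SE 0.16, limma adjusted p = 0.103). Of all genes, 45.0% were positive with APAP in wild-type livers, 55.9% with APAP in liver-null livers and 44.8% for genotype in saline. For the interaction 56.8% of all genes were positive. The interaction was negative for 16 of 17, with a median of -0.28 beside 0.03 for all genes, and 0 of the 17 were called (limma) with 0 at an unadjusted p under 0.05. After quantile normalization the signs were as many for the interaction (16 negative). The largest interactions were those of Sdf2l1 (-0.76, SE 0.75) and Creld2 (-0.61, SE 0.55). Liver-null saline 4 was the highest of the 12 arrays for both (9.01 and 10.97). It was also the highest for Hspa5 (12.71), Hyou1 (9.70) and Manf (11.51), but the lowest for Canx (10.53). The part of that liver in these signs was not tested.

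Fgf21, which encodes a liver hormone under the control of ATF4 and PPAR alpha, was high in single livers. It read 3.13, 3.49 and 2.25 in wild-type saline livers 8, 9 and 10, 4.86, 2.75 and 3.54 in wild-type APAP livers 12, 13 and 14, 6.65, 2.35 and 2.56 in liver-null saline livers 4, 5 and 16, and 3.06, 2.19 and 2.32 in liver-null APAP livers 2, 3 and 17. The high value is that of liver-null saline 4, the array with the highest Asns, Psat1 and S100a8. The interaction of Fgf21 was -2.09 (SE 1.34, limma adjusted p 1.00).

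Ddit4 resembled Psat1 in which livers were high. It read 2.44 to 2.93 in the 6 wild-type livers, 4.81, 4.48 and 2.87 in liver-null saline livers 4, 5 and 16, and 3.70, 4.42 and 2.67 in liver-null APAP livers 2, 3 and 17. Both low liver-null values of Ddit4 are on arrays of the smaller set. Chac1, a glutathione-degrading target of ATF4 named after its value was seen, differed by 0.90 between genotypes (limma adjusted p = 0.155), and Eif4ebp1, a translation repressor named likewise, by 0.52 (limma adjusted p = 0.0874).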
